A study of Mus musculus with 18 samples.

Results

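The parental line of a mouse embryonic stem cell (ESC) series was compared with itself before and after 6 days of differentiation with retinoic acid. The comparison used 6 of the series' 18 RNA-seq libraries, chosen by their labels: 3 of parental cells at day 0 and 3 of parental cells at day 6. The other libraries were parental cells at day 2 and cells labelled Oct1 cKO at days 0, 2 and 6, with 3 libraries in each group. No group label names a strain, a sex or a transgene, and the labels of the parental groups give no genetic change. The day 0 cells were undifferentiated ESCs. For differentiation, cells that the series' design text calls depleted, without saying of what, were plated on 0.01% gelatin in DMEM with retinoic acid at 1.5 ug/ml, non-essential amino acids, glutamine and antibiotics. All differentiated groups of both genotypes received retinoic acid, so its effect and that of time in this medium cannot be told apart. By its title the study concerns Oct1, Smad factors and the specification of mesoderm, and genes of these groups are reported below.

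ESCs are pluripotent: they hold a network of transcription factors around Pou5f1 (Oct4), Nanog and Sox2 that keeps lineage genes silent. Retinoic acid, a derivative of vitamin A, enters the nucleus and binds receptors (RAR and RXR proteins) that sit on paired half-sites in DNA. Its direct targets include its own receptor gene Rarb, the enzymes of the Cyp26 family that degrade it and the Hox genes that give cells a position along the body axis. In ESC cultures it is known to silence pluripotency genes and to yield mixtures of neural, mesodermal and extraembryonic cells that depend on dose and culture format.

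The promoters of 3 genes that the results below turn on are shown for the sites these pathways read. They are RefSeq windows of 300 bases on GRCm38.p6, from 250 bases before to 50 after the start site, written 5′ to 3′ on the gene's strand. In the first 2, capitals mark a direct repeat of retinoic acid receptor half-sites with a gap of 5 bases; in the third they mark the composite site of a POU and a SOX factor, GCATNACAATG.
Cyp26a1: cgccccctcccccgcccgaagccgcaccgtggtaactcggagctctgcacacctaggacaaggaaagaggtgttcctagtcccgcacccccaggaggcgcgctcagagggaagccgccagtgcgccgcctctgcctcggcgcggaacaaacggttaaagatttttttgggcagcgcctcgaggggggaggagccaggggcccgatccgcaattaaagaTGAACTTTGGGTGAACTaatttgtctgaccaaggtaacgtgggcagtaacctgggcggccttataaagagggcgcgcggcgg
Rarb: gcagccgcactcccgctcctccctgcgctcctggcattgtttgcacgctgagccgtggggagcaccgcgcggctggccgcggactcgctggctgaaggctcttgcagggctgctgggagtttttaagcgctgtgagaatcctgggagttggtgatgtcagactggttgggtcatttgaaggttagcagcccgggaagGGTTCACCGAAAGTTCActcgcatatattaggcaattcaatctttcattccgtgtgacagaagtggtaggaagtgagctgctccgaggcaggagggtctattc
Nanog: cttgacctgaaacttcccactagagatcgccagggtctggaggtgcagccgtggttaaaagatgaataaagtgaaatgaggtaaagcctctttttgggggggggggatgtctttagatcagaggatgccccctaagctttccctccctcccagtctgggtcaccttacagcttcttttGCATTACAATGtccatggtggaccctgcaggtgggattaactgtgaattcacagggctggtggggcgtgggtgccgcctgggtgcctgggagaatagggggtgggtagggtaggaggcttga
The Cyp26a1 window lies at chr19:37697558-37697857 on the plus strand, the Rarb window at chr14:16575427-16575726 on the minus strand and the Nanog window at chr6:122707239-122707538 on the plus strand. The repeat was searched on both strands as any pair of half-sites with 5 bases between them, a half-site being the consensus AGGTCA, its variant GGTTCA, its variant AGTTCA or its variant GGGTCA, and 32 of 32851 RefSeq promoters of this length held it (0.0974%). Of the 53 genes of the retinoic acid and Hox lists with a promoter in the RefSeq table, 2 held it. The composite site stood in 20 promoters (0.0609%) and in 1 of 16 pluripotency genes with a promoter in the table. In the Cyp26a1 repeat each half-site is AGTTCA, read on the strand opposite to the one shown. In the Rarb repeat the half-sites are GGTTCA and AGTTCA on the strand shown. These variants are part of the pattern, so the match of these 2 genes was set by it. A match describes the letters in this window only.

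Between day 0 and day 6 all 26 tested genes of the core and naive pluripotency list fell in the parental cells. Most listed genes of the retinoic acid response (14 of 18), of extraembryonic endoderm (30 of 32) and of paraxial, intermediate and lateral mesoderm (20 of 26) rose, as did most imprinted genes. Of all tested genes, 45.3% were called higher and 40.2% lower. Levels are given as CPM, counts scaled to library size, with each library's total adjusted by the trimmed mean of M values (TMM). Changes are log2 fold changes of day 6 against day 0 with their standard error (SE), and a gene was called at an adjusted p under 0.05 in the quasi-likelihood test of edgeR. The 3 genes Gdf3, H19 and Gata6 marked the comparison and were picked with its results known, so their values are a description. Gdf3, a TGF-beta family ligand of pluripotent cells, stood at 143, 143 and 145 CPM in the 3 day 0 libraries and at 0 in each day 6 library, where 7168 counts had become none; day 6 was at least 934-fold lower against a floor of 3 counts per library. H19, an imprinted long non-coding RNA, went from 71.4, 71.2 and 70.3 CPM to 11431, 11438 and 10653 CPM, a change of 7.30 ± 0.07. Gata6, a transcription factor of endoderm and heart, went from 0.875, 0.619 and 0.62 CPM to 303, 313 and 295 CPM, a change of 8.74 ± 0.11. The groups did not overlap for any of the 3. On GRCm38, Gdf3 lies at 6:122605403-122610087 and H19 at 7:142575529-142578143, and Gata6 is on chromosome 18. There the antisense gene model 1010001N08Rik overlaps the start of Gata6, so without strand, reads from the stretch they share cannot be told apart.

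**Figure D1:**
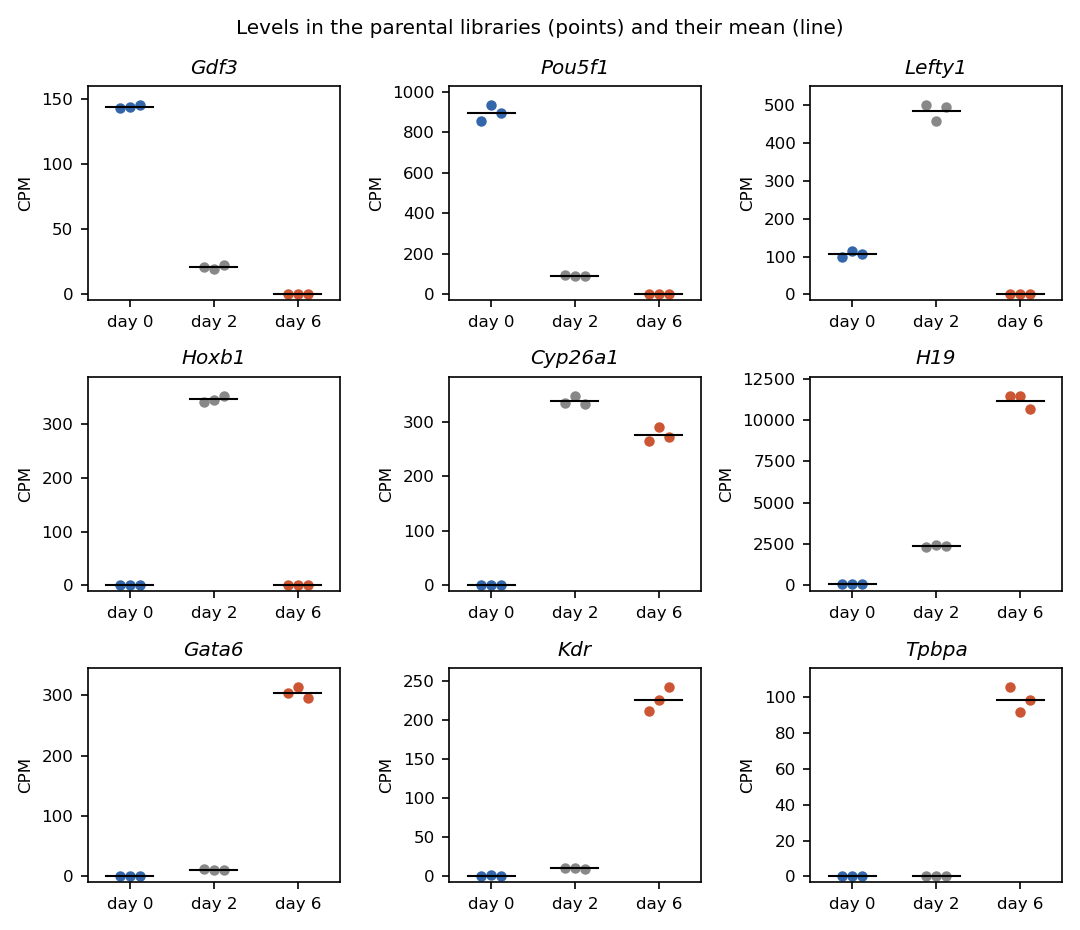
Levels of 9 genes in the 9 parental libraries at days 0, 2 and 6, on linear axes of CPM, with 1 point per library and a line at the mean of 3. Gdf3 and Pou5f1 fell in steps, Lefty1 and Hoxb1 stood highest at day 2, and H19, Gata6, Kdr and Tpbpa stood highest at day 6.

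The change reached most measured genes. Of 18352 genes tested, 8315 were called higher at day 6 (45.3%) and 7373 lower (40.2%). At least 2-fold, 5409 rose (29.5%) and 4118 fell (22.4%). The counts were 1183 higher and 918 lower at 16-fold or more, and 275 and 250 at 128-fold or more. In 15427 of the 15688 called genes the 3 libraries of one day all lay beyond the 3 of the other, and the median change of all tested genes was 0.07. With so large a share called, a call alone sets no gene or list apart, and the size of the change is given throughout. At the ends of the range, 88 genes held at most 3 counts over the day 0 libraries and at least 5 CPM in each day 6 library, and 84 showed the reverse.

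**Figure D2:**
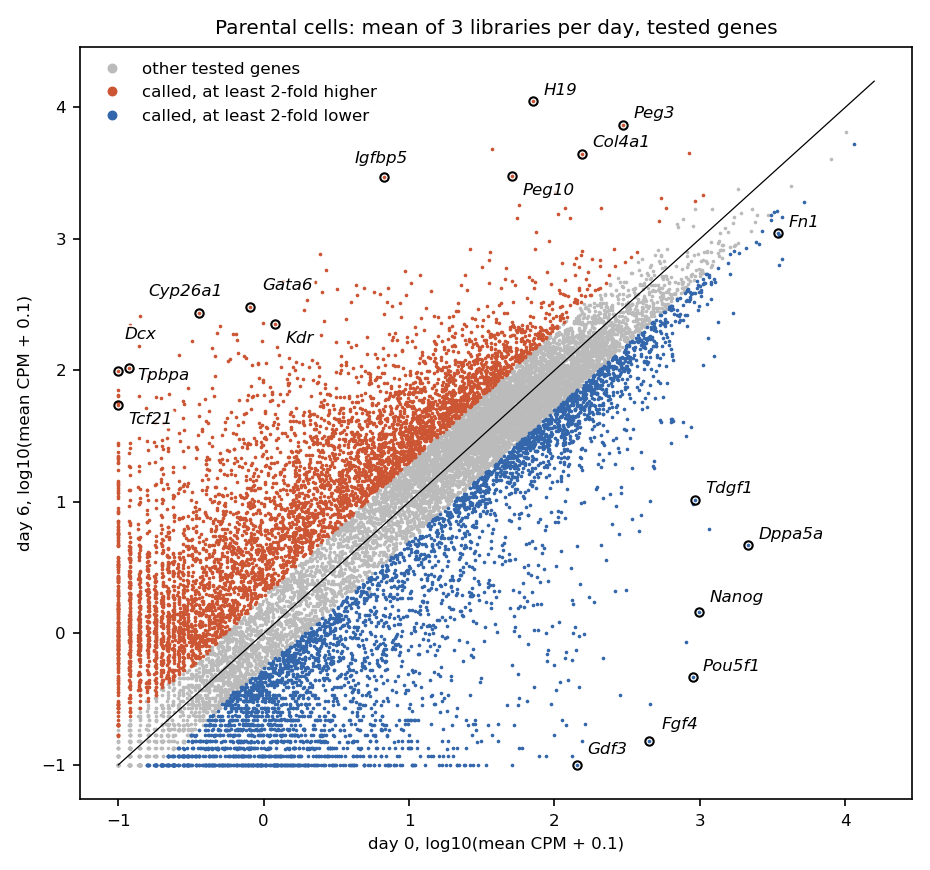
Mean CPM of 3 parental libraries at day 0 (x axis) and day 6 (y axis) for the tested genes, both as log10(CPM + 0.1), with the line of equal level. The 5409 genes called at least 2-fold higher lie above the line, the 4118 called at least 2-fold lower lie below it, and named genes are circled.

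Total counts were 17114542 to 19072464 at day 0 and 18220411 to 19296966 at day 6. Library pairs of one day correlated at 0.993 to 0.995 (Pearson's r of log2 CPM across genes, which are not independent) and pairs across days at 0.796 to 0.800. No pair agreed within sampling noise, so none was counted as 1 library. Whether a group's libraries came from separate cultures is not in the labels. The p-values rest on the spread within groups, estimated over all 18 libraries of the fit, possibly technical spread alone. Mitochondrial genes took 2.09% to 2.19% of counts at day 0 and 1.09% to 1.18% at day 6, and ribosomal protein genes 5.38% to 5.50% and 3.15% to 3.23%. Their part in the results was not tested. In bulk samples, fewer cells of a type and less RNA per cell cannot be told apart.

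The genes of pluripotency fell. All 26 tested members of the core and naive list fell, each at least 2-fold, with a median change of -6.56 against 0.07 for all genes. The libraries of day 0 carried the defining ESC markers. Pou5f1, the POU factor at the head of the network, stood at 853, 932 and 893 CPM at day 0, at a mean of 93.2 at day 2 and at 0.149, 0.467 and 0.47 at day 6. The day 6 libraries together held 21 Pou5f1 counts, a change of -11.25 ± 0.14 (adjusted p = 9.9e-32). Nanog, the homeobox factor whose promoter is shown above, fell from 991, 976 and 1003 CPM to 1.69, 1.35 and 0.992 CPM, by 9.51 ± 0.09 on the log2 scale. Its groups lay far apart, with 22.9 CPM at day 2 in between. Sox2, the SOX factor of the pair, went from a mean of 456 to 0.191 CPM, and Zfp42 (Rex1), a marker of naive ESCs, from 384 to 5.92. Genes of the naive state reached the counting floor: Tcl1, a co-activator of Akt, went from 85.8, 87.9 and 88.7 CPM to 1 count over the day 6 libraries, and Dppa3 (Stella), a maternal factor that protects DNA methylation, from 78.3, 78.1 and 76.9 CPM to 1 count. Prdm14, a repressor of lineage genes, and Spic, an Ets factor, had no count at day 6 and were at least 179-fold and 330.4-fold lower.

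The smallest decreases of the list were those of Tbx3, Klf5 and Klf4. Tbx3, a T-box factor that is also expressed in differentiated tissue, fell by 2.04 ± 0.05, Klf5 by 3.11 ± 0.05 and Klf4 by 3.44 ± 0.06, all on the log2 scale. Klf4 stood lower at day 2 (7.13 CPM) than at day 6 (30.6 CPM), and Tbx3 likewise (20.9 and 69.8 CPM). Dppa2 showed the other order, with 90.6, 240.4 and 2.39 CPM at days 0, 2 and 6. Of 18 genes of the formative and primed states, which follow naive pluripotency in the embryo, 11 fell and 7 rose. Among all genes 40.2% fell and 45.3% rose. Foxd3, a forkhead factor, went from 56.8 CPM to 2 counts over the day 6 libraries, and the zinc finger gene Zic2 fell by 7.74 ± 0.12. Those with the largest increases at this level were Sall2 (4.30 ± 0.08), Sox4 (3.77 ± 0.06) and Pou3f1 (1.48 ± 0.13), and Sox4 was already at 398 CPM at day 2. Fgf4, the growth factor that ESCs make, was at 441, 448 and 450.3 CPM at day 0 and at 3 counts over the day 6 libraries. Mep1b, a metalloprotease, and Ooep, a protein of the oocyte cortex, ended at 1 and 3 counts from means of 132 and 154 CPM.

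The neighbours of Gdf3 on chromosome 6 fell with it. The 8 other tested genes within 200 kb of it all fell, where 40.2% of all genes did. They include Nanog, 97.4 kb away, Dppa3, 16.3 kb away, and Slc2a3, a glucose transporter gene 117.7 kb away that went from a mean of 1701 to 275 CPM after 2580.1 CPM at day 2. The smallest decrease was that of the gene model Gm8430, -1.24 ± 0.43. This window was chosen after the values were seen, and the genes in it share it, so the count is a description.

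Among signalling genes, Nodal, its co-receptor Tdgf1 and its antagonists Lefty1 and Lefty2 fell, while most TGF-beta and BMP ligands rose. Nodal and its relatives use the co-receptor Tdgf1 (Cripto) and signal through Smad2 and Smad3, whereas BMPs signal through Smad1, Smad5 and Smad9. Of 18 ligand genes tested, 11 rose and 6 fell, where 45.3% and 40.2% of all genes did, with a median of 2.39. Nodal stood at 147, 154 and 141 CPM at day 0, at 124 at day 2 and at 0.249, 0.208 and 0.418 at day 6, a change of -8.95 ± 0.14 (adjusted p = 1.4e-34). The 3 day 6 libraries held 17 Nodal counts in all. Gdf15, a stress-induced ligand, fell by 2.41 ± 0.26, the activin subunits Inhba and Inhbb by 1.55 ± 0.08 and 0.85 ± 0.16, and Bmp8b by 1.11 ± 0.29. Bmp7 did not pass the test, at -0.14 ± 0.10, was called lower without the low count filter and with only the libraries compared (both -0.22), and changed sign with library sizes only (0.03).

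The ligands that rose span BMPs, TGF-betas and growth and differentiation factors. Gdf6, a BMP-type ligand of joints and eye, went from 0.125, 0.0563 and 0.062 CPM (4 counts in all) to 59.2, 62 and 65.3 CPM. Tgfb3 went from 8.06, 7.03 and 6.57 to 182, 196 and 189 CPM, a change of 4.71 ± 0.07, and was still at 7.32 at day 2. Tgfb2 rose by 3.52 ± 0.10 and Tgfb1 by 1.85 ± 0.12; Tgfb2 stood lower at day 2 (1.61 CPM) than at day 0 (12.1 CPM). Bmp5 rose by 7.38 ± 0.27, Gdf11 by 3.68 ± 0.12, Bmp2 by 2.84 ± 0.14, Bmp1, a protease that processes procollagen, by 2.82 ± 0.06, Bmp4 by 2.81 ± 0.16 and Bmp6 by 1.97 ± 0.13. Gdf10 went from 1 count over the day 0 libraries to a mean of 6.6 CPM.

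Of 12 receptor and co-receptor genes tested, 9 rose and 2 fell, with a median of 1.33; 4 fell without the low count filter and without parental day 6 library 3. Tdgf1 stood at 944, 916 and 919 CPM at day 0 and at 11, 10.3 and 9.51 at day 6, a change of -6.49 ± 0.07. Eng (endoglin), a co-receptor of endothelial cells, fell by 1.42 ± 0.06. The type II TGF-beta receptor Tgfbr2 rose by 3.16 ± 0.09, the co-receptor Tgfbr3 by 2.45 ± 0.06 and the BMP receptor Bmpr1b by 2.19 ± 0.19, and the activin receptor Acvr2b did not pass the test (-0.09 ± 0.08). Acvr2b was called lower without the low count filter (-0.17), with only the libraries compared (-0.18) and without parental day 6 library 3 (-0.23), and its sign turned with library sizes only (0.07). Of the 8 Smad genes, 7 rose and 1 fell. Smad3 stood at 14.8, 16.1 and 13.8 CPM at day 0 and at 165, 162 and 159.9 at day 6, a change of 3.44 ± 0.07, whereas Smad2, with which it shares its upstream receptors, rose by 0.16 ± 0.05; that call was lost with DESeq2 size factors (0.09) and without any 1 of the day 6 libraries (0.08 in each case). The BMP transducers Smad9, Smad5 and Smad1 rose by 3.59 ± 0.15, 2.29 ± 0.05 and 1.98 ± 0.08, and Smad4, the common partner, by 0.51 ± 0.05. The inhibitory Smad6 rose by 2.71 ± 0.11. Smad7, the other inhibitory member, was the one that fell, from 89, 86.1 and 83.2 to 35.4, 39.4 and 33.5 CPM, by 1.25 ± 0.07.

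Inhibitors and response genes moved in both directions. Of 16 extracellular and cytoplasmic inhibitors, 11 rose and 5 fell. Lefty2 and Lefty1, nodal antagonists that nodal itself induces, fell by 10.15 ± 0.12 and 6.58 ± 0.10; Lefty1 passed through 483 CPM at day 2 from 107 at day 0. Grem1, a BMP antagonist, fell by 5.32 ± 0.24. Noggin (Nog), which binds BMPs, rose by 3.52 ± 0.23, Ltbp1, which stores latent TGF-beta in the matrix, by 3.29 ± 0.06, and follistatin (Fst), which binds activin, by 3.07 ± 0.07. Of 15 response genes 8 rose and 6 fell, where 45.3% and 40.2% of all genes did. Those that rose were led by Tgfbi, a matrix protein, from 11.9, 11.7 and 12 CPM to 511, 543 and 536 CPM (5.48 ± 0.09), and by the BMP-induced Id1 (4.0 ± 0.09) and Id3 (2.86 ± 0.07). Id4 fell by 2.61 ± 0.10, and Ccn2, a matrix gene commonly read as a TGF-beta target, by 1.73 ± 0.05. Fibroblasts also express Ccn2. Of the 21 fibroblast and stroma genes described below 14 rose and 6 fell, and their part in this was not tested. Pmepa1, a feedback inhibitor, did not pass the test (0.14 ± 0.08), but was called higher with library sizes only (0.30) and stood at -0.01 without parental day 6 library 1.

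**Figure D3:**
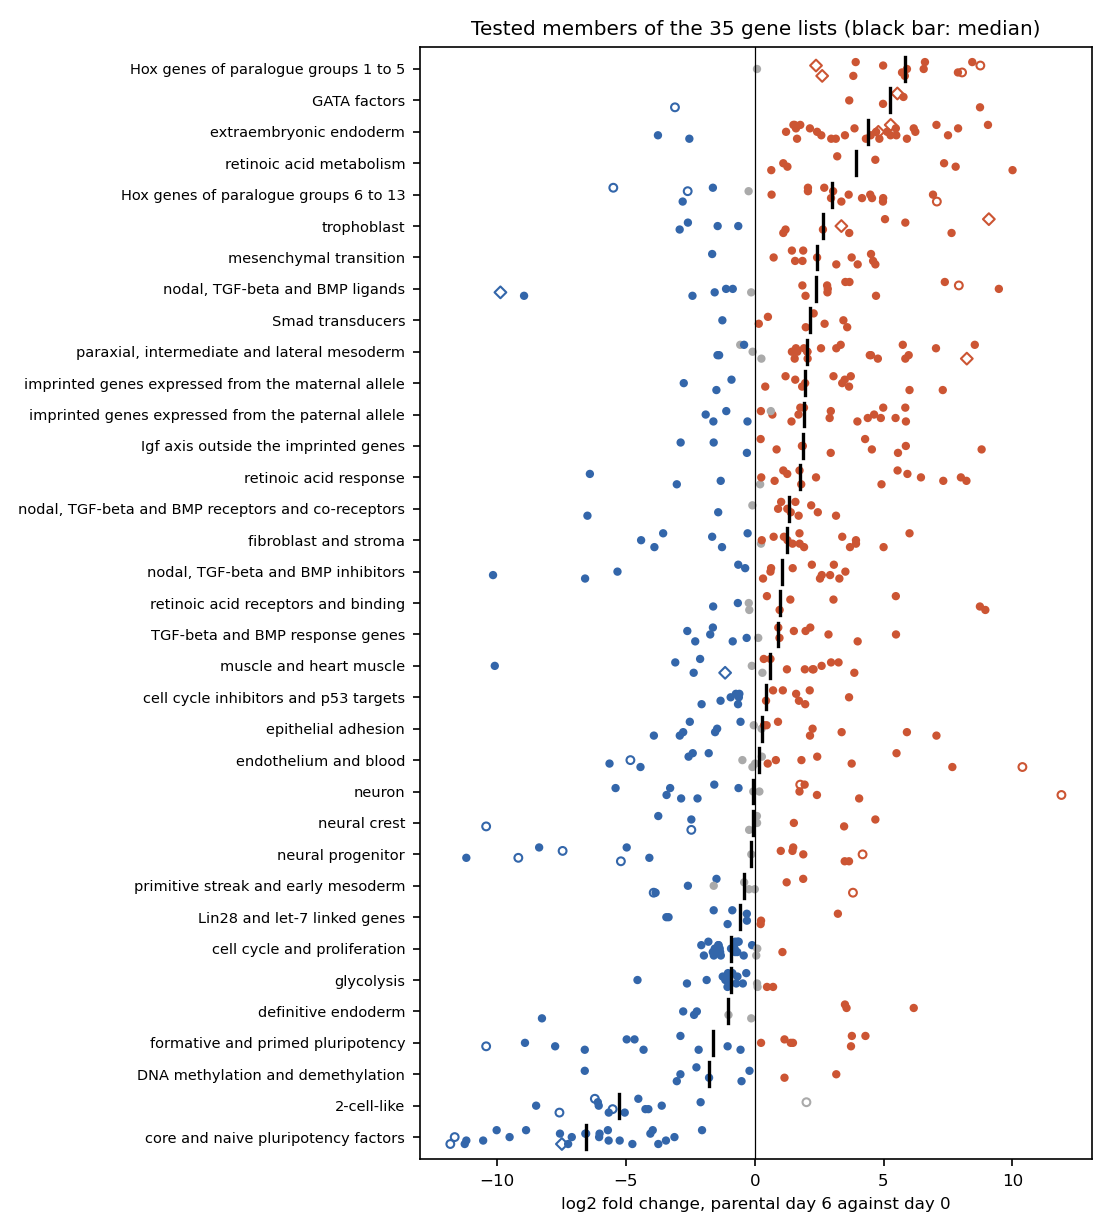
Log2 fold change of day 6 against day 0 for the tested members of the 35 gene lists, ordered by median (black bar). Filled points are coloured by call (orange higher, blue lower, grey not called), diamonds mark genes with no count on one day, drawn at their bound of 3 counts per library, and open circles mark genes with 1 to 3 counts on one day. The pluripotency list lies wholly below 0 and the GATA, extraembryonic endoderm and Hox lists lie mostly above it.

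Genes of retinoic acid metabolism rose. All 8 tested genes of its metabolism rose, with a median of 3.94. That median was 2.25 and 2.21 without parental day 0 library 2 or 3, 2.19 (7 called higher) and 2.16 without parental day 6 library 1 or 3, and 1.19 without the low count filter. Cyp26a1, the hydroxylase whose promoter is shown above, stood at 0.188, 0.338 and 0.248 CPM at day 0, 338 at day 2 and 265, 289.8 and 271 at day 6, a change of 10.01 ± 0.12 (adjusted p = 5.7e-41). It was thus above its day 6 level by day 2, while Cyp26b1, a related hydroxylase, went through 116 CPM at day 2 to 474, 470.2 and 480.1 CPM at day 6, a change of 7.80 ± 0.09. Dhrs3, a retinaldehyde reductase, rose by 7.35 ± 0.08. Aldh1a2, which makes retinoic acid, went from 10.01 to 92.3 CPM (3.20 ± 0.08).

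Among 11 receptors and binding proteins 7 rose and 2 fell, where 45.3% and 40.2% of all genes did. Rarb, the second gene shown above, stood at 0.313, 0.281 and 0.434 CPM at day 0, 16.1 at day 2 and 150.2, 150.2 and 146 at day 6 (8.74 ± 0.13), and Stra6, a membrane receptor for retinol-binding protein, rose by 8.95 ± 0.11. Among the other receptor genes, Rara rose by 0.97 ± 0.06 and Rarg fell by 0.65 ± 0.07. The binding protein gene Crabp2 was highest at day 2, at 136 CPM, and was not called at day 6 (7.88 and 6.71 CPM on days 0 and 6). Of 18 response genes 14 rose and 3 fell. Nr2f1 and Nr2f2, orphan nuclear receptors (COUP-TF proteins), rose by 8.22 ± 0.12 and 8.0 ± 0.11, and Meis1, a Hox cofactor, went from 2.13, 1.86 and 1.43 to 287, 295 and 285 CPM (7.32 ± 0.08). Stra8, which starts meiosis in germ cells, stood at 28.5, 486 and 3.51 CPM at days 0, 2 and 6 and so was lower at day 6 than at the start, by 3.02 ± 0.11. The caudal factor Cdx1 fell by 6.40 ± 0.25.

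Most Hox genes rose. Genes at the 3' end of a cluster (paralogue groups 1 to 5) pattern the hindbrain and anterior trunk, and those of groups 6 to 13 the posterior trunk. Of 15 tested genes of groups 1 to 5, 14 rose and Hoxd1 was not called (0.156 and 0.17 CPM), with a median of 6.56 (5.83 with genes at 0 held at their bound). Of 20 in groups 6 to 13, 15 rose and 4 fell, with a median of 3.0; the difference between the medians was not tested. Hoxa5, of group 5, went from 0.25, 0.394 and 0.434 CPM to 135, 135 and 113 CPM (8.44 ± 0.19), and Hoxc5 from 0.688, 0.394 and 0.62 to 125, 137 and 141 CPM (7.89 ± 0.13). Hoxb1, of group 1, had no count at day 0, 346 CPM at day 2 and 1.14, 0.934 and 1.25 CPM at day 6, which was at least 6.14-fold higher than day 0. Its day 2 peak had nearly gone by day 6, and Hoxb5 likewise went from 0.183 through 82.9 to 18.3 CPM. Hoxc9 showed the other order, at 4.41 CPM at day 2 and 33.7, 33.6 and 29.8 at day 6. Hoxb9 was above its day 0 level (9.94 CPM) at day 2 (104) and was not called at day 6 (8.43). Hoxc13 fell by 2.79 ± 0.21.

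**Figure D4:**
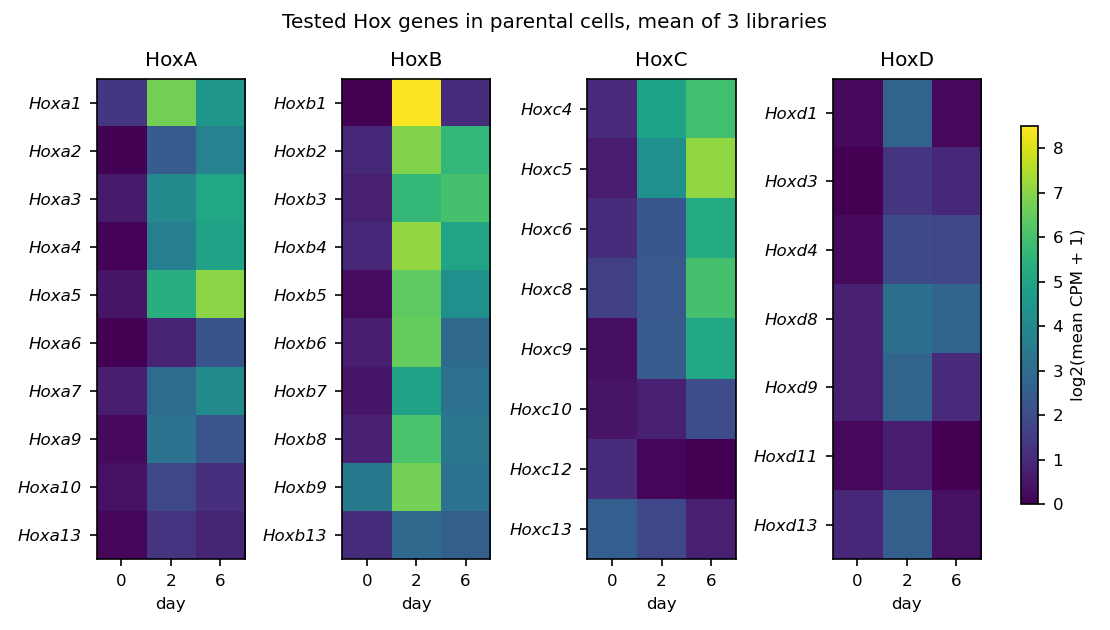
Mean of 3 parental libraries at days 0, 2 and 6 for the tested Hox genes, by cluster and in order of paralogue group, as log2(mean CPM + 1) on a shared colour scale. HoxB genes other than Hoxb3 are brightest at day 2, with Hoxb1 at 346 CPM, and HoxC genes from Hoxc4 to Hoxc9 are brightest at day 6.

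The GATA factors and the genes of extraembryonic endoderm rose. Extraembryonic endoderm lines the yolk sac, is specified by Gata6 and Gata4 and secretes a basement membrane. Of 6 GATA genes 5 rose and 1 fell (none with only the libraries compared), with a median of 5.38 (5.26 with Gata5 at its bound). Gata4 went from 1.63, 1.63 and 1.55 CPM to 82.8, 94.9 and 86.6 CPM (5.77 ± 0.10). Gata5 had no count at day 0 and 8.46, 7.99 and 8.72 CPM at day 6, at least 46.4-fold higher. Gata2 and Gata3 rose by 4.98 ± 0.10 and 3.67 ± 0.12. Gata1, the erythroid factor, was at 10 counts over the day 0 libraries and 1 over the day 6 libraries. At day 2 Gata6 and Gata4 were at 10.8 and 20.03 CPM.

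Of 32 endoderm genes tested 30 rose, all at least 2-fold, and 2 fell, with a median of 4.41. The summed CPM of the list was 2436 to 2511 at day 0 and 18381 to 18780 at day 6. Col4a1, a type IV collagen of the basement membrane, stood at 151, 159.9 and 156 CPM at day 0, 342 at day 2 and 4434, 4495 and 4430.1 at day 6 (4.84 ± 0.05). Cubn, an endocytic receptor of the visceral endoderm, rose by 9.05 ± 0.21, Pdgfra by 7.50 ± 0.11, the adaptor Dab2 by 5.14 ± 0.09 and Apoa1, a lipoprotein gene, by 7.89 ± 0.21. Ttr and Apoa4, further products of visceral endoderm and liver, had no count at day 0 and were at least 27.8-fold and 38.8-fold higher. Sox17, of both endoderm types, rose by 3.50 ± 0.17, and keratin 8 (Krt8) by 7.05 ± 0.09. The lipid carrier Apoe fell, from 529, 560.0 and 535 CPM to 35.6, 41.6 and 43.1 CPM. Of 9 definitive endoderm genes 3 rose and 4 fell, where 45.3% and 40.2% of all genes did. Their median was -1.02 (-0.29 without parental day 0 library 3). Foxa2 rose by 6.17 ± 0.22, whereas Trh and Hhex fell by 8.25 ± 0.17 and 2.24 ± 0.12.

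Imprinted genes, which are expressed from 1 parental allele, rose at most loci. The allele named for each gene is the one known for it, and the allele read in these libraries was not measured. Of 15 tested genes of maternal expression 12 rose and 3 fell, with a median of 1.96, and of 21 of paternal expression 16 rose and 4 fell, with a median of 1.91. H19 and its neighbour Igf2 are read from opposite alleles, H19 from the maternal and Igf2 from the paternal one. Igf2, a fetal growth factor 72.6 kb from H19, went from 0.875, 1.52 and 1.74 CPM to 22.5, 21.7 and 21.8 CPM (3.99 ± 0.13). H19 alone took 0.00663% of counts at day 0, 0.283% at day 2 and 1.17% at day 6, a gain larger than that of any other gene, without regard to gene length. The H19 RNA is also the precursor of miR-675, whose mature forms on the minus strand of GRCm38.p6, at chr7:142577112-142577133 (5p) and chr7:142577078-142577099 (3p) in RefSeq, are shown with the seed, bases 2 to 8, in capitals to show what the transcript carries; their level was not measured here.
mmu-miR-675-5p: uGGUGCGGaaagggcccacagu
mmu-miR-675-3p: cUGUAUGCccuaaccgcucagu
Of the 10 other tested genes within 200 kb of H19, 9 rose, where 45.3% of all genes did. The window was chosen after the values were seen, so the count is a description. Ctsd, a lysosomal protease gene, was not called (-0.08 ± 0.06). Ctsd was called lower with DESeq2 size factors (-0.15), in DESeq2 (-0.15), without the low count filter (-0.16), with only the libraries compared (-0.17) and without parental day 6 library 1, 2 or 3 (-0.14, -0.14 and -0.20), and its sign turned with library sizes only (0.08). Lsp1, a leukocyte actin-binding protein gene, rose by 6.15 ± 0.12. Gm27483 and Gm27786 lie inside H19 and had no count at day 0, so they could only be called higher. Igf2os runs antisense to Igf2. Without strand, reads from the stretches these genes share with their host cannot be told from those of the host.

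Other imprinted loci showed both directions. Peg3, a zinc finger gene, stood at 300.1, 292 and 303 CPM at day 0, 1766 at day 2 and 7774, 7235 and 7229 at day 6 (4.63 ± 0.08), and its domain partners, the maternal Zim1 and the paternal Usp29, rose by 3.73 ± 0.13 and 2.95 ± 0.07. Peg10, a retrotransposon-derived gene of the placenta, was at 5577 CPM at day 2 and stood at 3022, 3043 and 2939 CPM at day 6 (5.87 ± 0.07). At the Dlk1 locus the paternal Dlk1 rose by 5.47 ± 0.09 and the maternal non-coding RNAs Rian, Meg3 and Mirg by 3.49 ± 0.06, 3.40 ± 0.13 and 3.06 ± 0.10. At the Igf2r locus the antisense RNA Airn rose by 5.84 ± 0.17. Igf2r, the receptor that clears Igf2, fell from 258, 253 and 259 to 90.1, 89.3 and 95.4 CPM (-1.49 ± 0.08). The 2 overlap, so without strand, reads from the stretch they share cannot be told apart. At the Kcnq1ot1 domain, Cdkn1c, a growth inhibitor, rose by 3.66 ± 0.09 and Phlda2 fell by 2.75 ± 0.19. Snrpn, a splicing protein gene of the paternal allele, fell by 1.90 ± 0.05, and Impact by 0.28 ± 0.05.

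**Figure D5:**
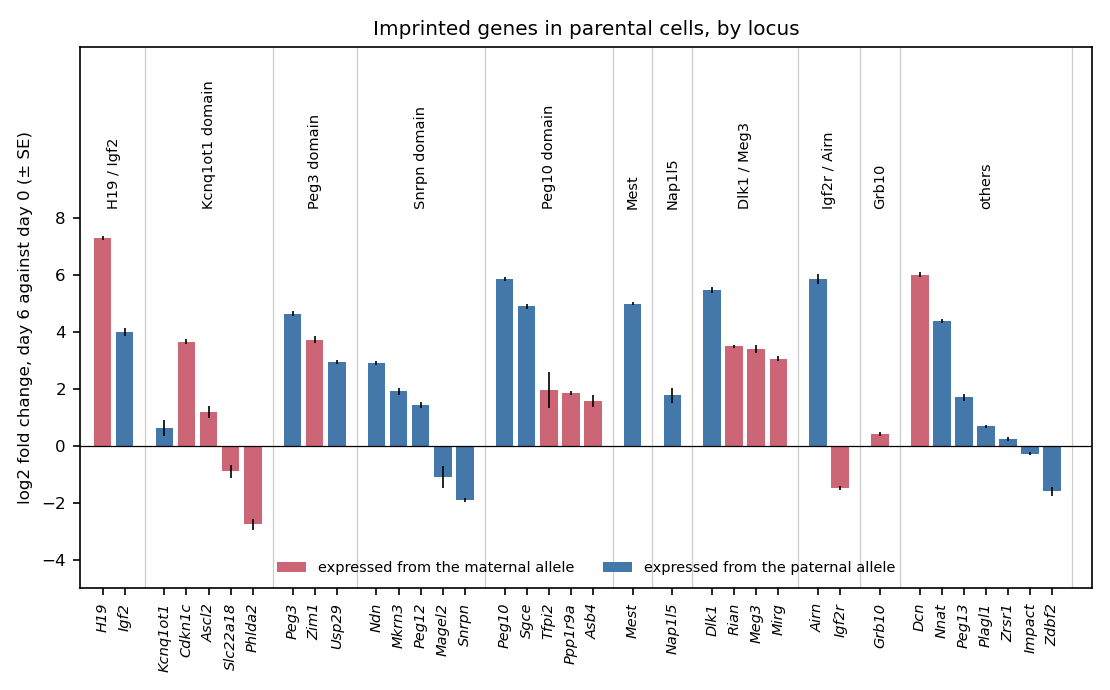
Log2 fold change of day 6 against day 0, with SE, for tested imprinted genes grouped by locus. Colours give the allele listed for each gene (red maternal, blue paternal), which was not measured here. H19 and Igf2, of opposite alleles, both rose, as did the genes of the Dlk1 and Meg3 locus, and Phlda2, Igf2r and Snrpn lie below 0.

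Of the 13 genes of the Igf axis outside the imprinted set, 10 rose and 3 fell. Igfbp5, which binds Igf proteins in the matrix, stood at 6.69, 6.36 and 6.7 CPM at day 0, 9.95 at day 2 and 2793, 2964 and 3079 at day 6, a change of 8.81 ± 0.08. At day 2 it was thus still near its day 0 level, and its groups at day 0 and day 6 lay far apart. Igf1 and Igfbp6 rose by 5.56 ± 0.12 and 5.87 ± 0.14, whereas Igfbp2 fell by 2.87 ± 0.12. The RNA-binding Igf2bp1 fell by 1.59 ± 0.05.

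Placental genes made up several of the largest increases. Tpbpa, a marker of the spongiotrophoblast, had no count at day 0 or at day 2 and 105, 91.6 and 98 CPM at day 6, at least 544-fold higher than day 0. Serpinb9e, Ctsj and Ceacam9, of families expanded in the rodent placenta, had no count at day 0 and were at least 391-fold, 357-fold and 314-fold higher. Their libraries at day 6 held 68.2, 73.6 and 70.0 CPM, 79.2, 59.8 and 54.5 CPM and 67.2, 54.1 and 48.8 CPM. These families hold near-identical copies, so reads may have been split between members and the level of 1 gene is uncertain. All 5 other tested genes within 200 kb of Tpbpa rose, in a window chosen after the values were seen, where 45.3% of all genes did. Some of them, Ctsj included, had no count at day 0 and could only be called higher, so the count is a description. Psg29, Prl7d1 and Prl2b1, pregnancy-specific and prolactin-like genes chosen after their values were seen, also had no count at day 0, with 28.2, 21.3 and 21.1 CPM at day 6. Of 13 tested genes of the trophoblast list, 9 rose and 4 fell, with a median of 2.65. Plac1 rose by 7.64 ± 0.18 and the trophectoderm keratin Krt7 by 5.06 ± 0.09, while Eomes fell by 2.59 ± 0.19, Esx1 by 1.44 ± 0.12 and Tfap2c by 0.64 ± 0.06. The trophoblast stem cell factor Cdx2 was at 1.48 and 3.2 CPM. Tgm5, a transglutaminase, had no count at day 0 and 58.1, 57.7 and 53.8 CPM at day 6, and Tmem255a and Gucy1a1, a membrane protein and a guanylate cyclase subunit, held 1 and 2 counts at day 0 and 222 and 259 CPM at day 6.

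Most genes of later mesoderm rose, whereas genes of the primitive streak moved in both directions. Of 26 genes of paraxial, intermediate and lateral mesoderm 20 rose and 3 fell, with a median of 2.05. Wt1, a factor of the kidney and of the mesothelium, went from 0.688, 1.63 and 1.49 CPM to 475, 487 and 479 CPM (8.54 ± 0.12). Tcf21, of the same tissues, had no count at day 0 and 51.5, 53.9 and 57.6 CPM at day 6, at least 301-fold higher. Their means at day 2 lay in between (56.7 and 0.422 CPM). Tbx2, a T-box factor of the heart, rose by 7.04 ± 0.12, Hand1 by 5.85 ± 0.21, Hand2 by 5.98 ± 0.22, and Twist1, of mesenchyme, by 4.51 ± 0.12. Tcf15, of somites, fell by 1.44 ± 0.28. Of 11 streak genes 3 rose and 4 fell, where 45.3% and 40.2% of all genes did. Brachyury (T) was at 1.07 CPM at day 0 and 0.0685 CPM at day 6. Eomes fell as above, and Snai1, which drives loss of cell contacts, rose by 1.88 ± 0.10.

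Of 18 genes of endothelium and blood 8 rose and 6 fell, where 45.3% and 40.2% of all genes did. Their median of 0.15 ranged over the alternatives from -0.06 without the low count filter to 0.42 with only the libraries compared. It was 0.31 with library sizes only, -0.02 and 0.10 without parental day 6 library 1 or 2, and 0.26 without parental day 0 library 2 or day 6 library 3. Kdr, the main receptor of VEGF, stood at 1.13, 1.24 and 0.93 CPM at day 0 and 211, 225 and 241 CPM at day 6, a change of 7.67 ± 0.10. Cdh5 (VE-cadherin), the adhesion protein of endothelial junctions, was at 3 counts over the day 0 libraries and 97.3, 89.9 and 83.6 CPM at day 6. Flt1, a VEGF receptor, rose by 3.76 ± 0.08. Not all endothelial genes rose: Pecam1 (CD31) fell by 5.63 ± 0.08 from 277 CPM, and Tek by 2.57 ± 0.11. The blood stem cell genes Tal1 and Cd34 were not called (0.28 ± 0.51 and -0.09 ± 0.35), and the sign of Cd34 turned with library sizes only (0.07) and without parental day 0 library 3 (0.04). Of 17 muscle genes 10 rose and 5 fell. Those that rose most were smooth muscle and structural genes, Myh11 (3.87 ± 0.14), desmin (Des, 3.25 ± 0.10) and Myl9 (2.96 ± 0.08). The sarcomere gene Ttn, with 119 CPM at day 0, fell by 10.09 ± 0.46, and Acta1 and Myl7 were not called.

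Neural genes moved in both directions. Of 15 progenitor genes 7 rose and 7 fell, and of 15 neuron genes 6 rose and 7 fell. Of all tested genes 45.3% rose and 40.2% fell. The medians of the progenitor and neuron lists were -0.13 and -0.05, and their size and sign varied with the processing. The progenitor median was -1.93 without the low count filter, -1.62 with only the libraries compared and 0.03 with library sizes only. It was -0.36, 0.32 and -0.24 without parental day 0 library 1, 2 or 3 and -0.31 without parental day 6 library 2. The neuron median was -0.43 with only the libraries compared and 0.11 with library sizes only. It was 0.09 and 0.18 without parental day 0 library 1 or 2, and -0.20 and 0.03 without parental day 6 library 1 or 2. The progenitor factors Sox2 and Zic5 fell (Zic5 by 8.36 ± 0.14), and Pax6, a factor of the neural tube and eye, rose by 1.89 ± 0.18. Pax6 stood higher at day 2 (13.3 CPM) than at day 6 (5.81 CPM). Sox9 rose by 3.66 ± 0.12. Among neuron genes, Dcx (doublecortin) went from 1 count at day 0 to 105, 106 and 102 CPM and Nefm, a neurofilament, from 26.9, 23.6 and 23.9 to 457, 414 and 366 CPM (4.05 ± 0.07), whereas Mapt (tau) and Elavl3 fell by 5.40 ± 0.11 and 3.42 ± 0.20. Of 10 neural crest genes 3 rose and 4 fell, with a median of -0.06 that was 0.09 with library sizes only and 0.0032 with only the libraries compared. It was -0.35 and -0.20 without parental day 0 library 1 or 3 and -0.04, -0.61 and -0.01 without parental day 6 library 1, 2 or 3. Snai2 and Ets1 rose by 4.68 ± 0.13 and 3.47 ± 0.09, and Mitf and Erbb3 fell by 3.74 ± 0.11 and 2.46 ± 0.08.

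Mesenchymal genes rose and E-cadherin fell. Of 13 mesenchymal genes 12 rose and 1 fell, with a median of 2.42. Cdh2 (N-cadherin) went from 9.94, 10.5 and 10.8 CPM to 169, 169.7 and 159.7 CPM (4.0 ± 0.08), and Cdh11, a cadherin of mesenchyme, rose by 4.59 ± 0.08. Fibronectin (Fn1) was the one that fell, from 3437, 3473 and 3517 to 1166, 1072 and 1084 CPM. Of 17 epithelial adhesion genes 8 rose and 7 fell, where 45.3% and 40.2% of all genes did. Cdh1 (E-cadherin) fell from 637, 634 and 644 to 39.2, 45.5 and 42.5 CPM (-3.91 ± 0.06). Grhl2 fell by 2.91 ± 0.11 and Epcam by 2.77 ± 0.06, whereas the desmosomal Dsp rose by 2.25 ± 0.06.

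Genes of fibroblast and stroma were measured because feeder cells can carry over into ESC cultures. Of 21 such genes 14 rose and 6 fell, where 45.3% and 40.2% of all genes did. Their summed CPM was 5521 to 5655 at day 0, 1125 to 1222 at day 2 and 7755 to 8211 at day 6. Fn1, described above, is in this list too and made up most of the day 0 sum. It took 0.324% of all counts at day 0, 0.0718% at day 2 and 0.116% at day 6. Collagen genes rose, for example Col3a1 from 75, 79.2 and 69.5 to 1103, 1097 and 1211 CPM (3.93 ± 0.08) and Col6a2 (3.93 ± 0.07), as did Mmp2 (5.0 ± 0.08) and Dcn, which is also in the imprinted list (6.01 ± 0.10). Thy1 and Lox, surface and matrix genes of fibroblasts, fell by 3.89 ± 0.13 and 4.41 ± 0.08. Fbln5 was not called. None of these genes marks feeder cells alone, and their part in the day 0 level was not tested.

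Most genes of the cell cycle and of glycolysis fell. Of 23 cell cycle genes 20 fell and 1 rose (19 and 2 with library sizes only), with a median of -0.92. Mcm2, of the replicative helicase, fell from 554, 569 and 564 CPM to 136, 134 and 131 CPM, by 2.07 ± 0.05, and Mcm5 and Mcm3 by 1.97 ± 0.05 and 1.80 ± 0.05. The proliferation marker Mki67 was not called (0.06 ± 0.10, with a sign that turned with DESeq2 size factors, to -0.0071, and without any 1 of the day 6 libraries, to -0.0312 at the lowest). Myc was not called either (0.10 ± 0.08), though with library sizes only it was, at 0.26, and cyclin D2 (Ccnd2) rose by 1.08 ± 0.07. Of 15 cell cycle inhibitors and p53 targets 8 rose and 7 fell, where 45.3% and 40.2% of all genes did. Cdkn2b and Cdkn2c rose by 2.14 ± 0.13 and 1.96 ± 0.17. Pmaip1 (Noxa), a cell death gene, and Trp53 itself fell by 2.06 ± 0.05 and 1.32 ± 0.05. Of 18 glycolysis genes 14 fell and 2 rose (4 with library sizes only), with a median of -0.92. Pfkp, a phosphofructokinase, fell from 858, 864 and 885 to 38.6, 36.9 and 35.9 CPM, and Tpi1 and the glucose transporter Slc2a1 rose by 0.48 ± 0.06 and 0.71 ± 0.05.

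Most genes of DNA methylation, and nearly all of the 2-cell-like state, fell. Of 9 genes that write or erase DNA methylation 7 fell and 2 rose. Dnmt3l, a cofactor of de novo methylation, stood at 169.5, 182 and 171, 365 (mean) and 1.59, 1.56 and 2.25 CPM at days 0, 2 and 6, and Tet1 and Dnmt3b fell by 3.02 ± 0.14 and 2.88 ± 0.07, whereas Tet3 and Dnmt3a rose by 3.17 ± 0.06 and 1.16 ± 0.05. Lin28a, an RNA-binding protein that blocks let-7 maturation, was at 72.6, 377 and 35 CPM at days 0, 2 and 6, a net decrease (-1.05 ± 0.05). Hmga2, a chromatin protein and let-7 target, rose from 52.2, 51.2 and 48.6 CPM to 474, 485 and 465 CPM (3.23 ± 0.05), and Hmga1 fell by 3.34 ± 0.09. Genes of the 2-cell-like state, a rare state of ESC cultures that expresses Zscan4, fell: 13 of 14 tested members were called lower and none higher (1 higher without parental day 6 library 3), with a median of -5.28. Their summed CPM was 60.6 to 75.1 at day 0, 379 to 473 at day 2 and 0.783 to 1.49 at day 6. Zscan4, Tcstv and Usp17 genes are near-identical copies, so only the sum is given, along with Zfp600, which fell by 8.48 ± 0.27.

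The same net change was set beside that of the Oct1 cKO line by an interaction term, which tests whether the change differs between genotypes. Pou2f1, the gene that encodes Oct1, stood at 135, 124 and 127 CPM in parental libraries at day 0 and 64.9, 61.1 and 64.2 CPM at day 6, a change of -1.02 ± 0.10. In the libraries labelled Oct1 cKO it was at 79.3 ± 14.6 CPM (mean ± SD, n = 3, as for all Oct1 cKO levels) at day 0 and 42 ± 5.15 at day 6; reads from parts of the gene outside a deletion would still be counted, so this does not check the label. The interaction was called in 11730 of 18352 genes (63.9%), 5873 of them higher and 5857 lower in the Oct1 cKO line. Of 12 genes set for this test 9 were called. Pou5f1 was at 1517 ± 193 CPM at day 0 in Oct1 cKO against 893 in parental cells. At day 6 it was at 31 ± 0.598 CPM against 0.362, a difference in net change of 5.64 ± 0.21. In Oct1 cKO at day 0, Gata6 was at 0.642 ± 0.314 CPM, Kdr at 1.51 ± 0.382, Cdh2 at 9.39 ± 0.374 and Pax6 at 0.676 ± 0.163. At day 6 Gata6 was at 68 ± 4.03 CPM (interaction -2.09 ± 0.38) and Kdr at 12.9 ± 0.372 CPM (-4.55 ± 0.30). Cdh2 was at 12.1 ± 2.22 CPM (-3.62 ± 0.14) and Pax6 at 0.2 ± 0.136 CPM (-3.58 ± 0.52). The mean of Pax6 was thus lower at day 6 than at day 0 in Oct1 cKO, which was not tested. Each of these genes had a lower net change than in parental cells. Meis1 likewise had a lower net change in Oct1 cKO (-1.68 ± 0.23), whereas H19, Igf2 and Col4a1 had a higher one (0.51 ± 0.08, 1.59 ± 0.28 and 1.28 ± 0.07). The values of H19, Igf2 and Col4a1 were smaller with library sizes only, at 0.32, 1.40 and 1.09. Tdgf1 and Dab2 were not called (-0.17 ± 0.10, adjusted p = 0.142, and -0.32 ± 0.15, adjusted p = 0.0537). With library sizes only both were called (-0.37 and -0.51), and Dab2 was called with only the libraries compared (-0.329) and without parental day 0 library 1 (-0.376), Oct1 cKO day 0 library 3 (-0.499) or Oct1 cKO day 6 library 2 (-0.35) or 3 (-0.36). For Gdf3, at 0 in each parental day 6 library and at 0.0617 ± 0.0636 CPM in Oct1 cKO, the interaction had an adjusted p of 0.0553, and of 0.028 without Oct1 cKO day 6 library 1. The comparison shares its parental libraries with the test above, and each value is a difference between the changes and not a level.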

How the data were processed

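Total RNA of parental mouse ESCs was profiled by RNA-seq at days 0 and 6 (3 libraries each); parental day 2 and the Oct1 cKO groups entered the same fit. The values are the read counts per Ensembl gene that the authors deposited, whole numbers without normalization, for 21995 genes. Per the submitters' processing notes, Novoalign, DESeq2 1.10.0 and the builds mm10 and GRCm38 were used, with no role or order given. Per the labels' protocols, trypsin-harvested cells gave RNA by Trysol isolation, and library preparation was the standard Illumina one. The read counter, annotation release, strand setting and treatment of multiply mapping reads are steps not given in the sources used here, so overlapping genes and near-identical copies are uncertain.

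Groups come from the genotype and day labels and columns from the titles. The quasi-likelihood test of edgeR 4.0.16 (R 4.3.3; estimateDisp, glmQLFit and glmQLFTest with robust settings, TMM) was run on all 18 libraries in 1 fit after filterByExpr (minimum count 10, total 15), keeping 18352 genes. Adjusted p is the Benjamini-Hochberg value over all of them, with a threshold of 0.05, and SE derives from the F statistic. The script was tested on simulated data in which few genes changed, so that test does not cover scaling where most genes changed. Day 2 levels are given beside the others without a test, since day 2 and day 6 would share the day 0 libraries. A gene with no count on one day is given as a bound against 3 counts per library, which covers counting error only, and one with 1 to 3 counts over a day's libraries as counts and CPM without a fold. Library totals were 13694126 to 19296966 counts. Alternatives were DESeq2 size factors, library sizes only, no filter, DESeq2 1.42.0, only the libraries compared, and leaving out each library. Positions come from GENCODE M21 and sequences from RefSeq, both on GRCm38.

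The members and the 35 gene lists (543 symbols, 531 in the table) were chosen with earlier results of these data known. The text names Gdf3, H19, Gata6, Pou2f1 and the 12 genes of the interaction test, the 8 strongest increases and 8 strongest decreases among called genes (official symbol, no overlap between groups, log2 CPM averaging at least 1), up to 3 genes per direction from every list under the same level rule, list members with no call where a list has 1 or 2, and the GATA, Smad and ligand lists. Some genes that this rule names are not described. Named outside it, after their values were seen, were 1010001N08Rik, Aldh1a2, Apoa4, Cd34, Cdx1, Cdx2, Col3a1, Ctsd, Dppa2, Foxa2, Gm27483, Gm27786, Gm8430, Hand2, Hoxb1, Hoxb3, Hoxb5, Hoxc13, Hoxc4, Igf2os, Klf4, Klf5, Krt7, Lin28a, Lsp1, Meg3, Mirg, Nanog, Peg3, Prdm14, Prl2b1, Prl7d1, Psg29, Rara, Rian, T, Tal1, Tbx3, Tcf15, Ttr, Usp29 and Zfp42.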

Additional observations from a re-analysis of the deposited data

Results flagged for a closer look

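Of the 12 genes for which the difference between the 2 genotypes' net changes was tested, 9 differed by the interaction term of edgeR's quasi-likelihood test, which 63.9% of all tested genes also did. Positive values mean a higher net change in Oct1 cKO. The log2 difference was 5.64 for Pou5f1 (adjusted p = 5.8e-19), 1.59 for Igf2 (4.3e-06), 1.28 for Col4a1 (4.8e-19) and 0.51 for H19 (5.1e-07). It was -4.55 for Kdr (adjusted p = 2.8e-16), -3.62 for Cdh2 (2.0e-23), -3.58 for Pax6 (1.4e-07), -2.09 for Gata6 (7.4e-06) and -1.68 for Meis1 (4.4e-08).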

How the results depend on the processing

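The alternatives moved no count of called genes by 1.5 times or more. Genes called higher numbered 7723 to 8980 over the other settings and 7858 to 8285 when 1 library was left out; genes called lower numbered 6596 to 8530 and 7212 to 7743; the interaction count was 11515 to 11956 and 11450 to 11780. With library sizes only, the median of all genes moved by 0.16, with 8980 genes higher and 6596 lower. Of the 170 genes named in the text with a fold change, 162 kept direction and side of the threshold in every setting run. Many of the 170 were named for a large change, so this share does not describe called genes at large. The other 8 follow. Mki67, not called, changed sign with DESeq2 size factors (-0.0071), in DESeq2 (-0.0072), without the filter (-0.0194), with only the libraries compared (-0.0244) and when a day 6 library was left out (-0.0312 to 0.0819 over all libraries left out). With library sizes only Acvr2b (0.0718), Bmp7 (0.0256), Cd34 (0.0715) and Ctsd (0.0813) changed sign, and Pmepa1 (0.30) and Myc (0.26) were called higher. Ctsd was called lower with DESeq2 size factors, in DESeq2 (both -0.15), without the filter (-0.16), with only the libraries compared (-0.17) and without any 1 day 6 library (-0.1976 at the lowest). Without the filter and with only the libraries compared Acvr2b (-0.17 and -0.18) and Bmp7 (-0.22 in both) were called lower, as was Acvr2b without day 6 library 3 (-0.23). Cd34 also changed sign without day 0 library 3 (-0.387 to 0.0361 over the libraries left out) and Pmepa1 without day 6 library 1 (-0.0133 to 0.166). Smad2 was not called with DESeq2 size factors (0.09), in DESeq2 (0.09), without the filter (0.08), with only the libraries compared (0.07) or without 1 day 6 library (0.08). The cause was not tested. The interaction of Dab2 was called with library sizes only (-0.51), with only the libraries compared (-0.329) and without parental day 0 library 1 (-0.376), Oct1 cKO day 0 library 3 (-0.499) or Oct1 cKO day 6 library 2 (-0.35) or 3 (-0.36), that of Tdgf1 with library sizes only (-0.37), and that of Gdf3 without Oct1 cKO day 6 library 1 (adjusted p = 0.028). Where a printed list median changed sign or moved by over 1.5 times without 1 library, the value is given with the list. Depth limits genes under 3 counts per library, given as bounds. No paired analysis was possible because the labels give no replicate numbers.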
